A study of Mus musculus with 2 samples.

Results

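Procr, Lgr5, Tspan8, Axin2, Bcl11b, Cdh5 and Cd1d1 are 7 genes that have been used, alone or in pairs, to mark stem or repopulating cells of the basal layer of the mammary gland. They were taken by symbol from the 27998 genes of 2 single-cell libraries of adult FVB/NJ mouse mammary gland, and all 7 were found in both. One library, total epithelium (3302 cells), held lineage-negative CD24+ cells of both epithelial layers. The other, sorted basal (4771 cells), held lineage-negative CD29hiCD24+ cells, and the lineage gate removes cells bearing CD31, CD45 or TER119. The mice were wild type and untreated, their cells were pooled (8 mice are named for both libraries together), and each group was 1 library, so that no difference below has a replicate check and no p-value is given.

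Cells of total epithelium were split by summed unique molecular identifiers (UMIs, each standing for 1 captured transcript). Cells with 10 or more counts of Krt5, Krt14 and Acta2 formed the basal class (1280 cells, median 1820 UMIs). Those with 10 or more counts of Prlr, Stc2 and Gpx3 formed the mature luminal class (ML, 1133 cells, median 3403 UMIs). Of the cells past neither rule, those with 3 or more counts of Krt8, Krt18 and Krt19 formed the luminal progenitor class (LP, 766 cells, median 2483.5 UMIs). A further 26 cells passed both of the first rules and were kept apart, and 97 cells passed none and are called other (median 1184 UMIs). Marker genes outside the rules followed the class names, since a list of 10 further basal genes stood at 24522 CPM (UMIs of the genes per 1000000 UMIs of the class) in the basal class, 176 CPM in LP and 65.3 CPM in ML. Of the other cells, 72 of 97 carried 3 or more counts of fibroblast, endothelial, pericyte, Schwann or immune genes, while 33 basal, 11 LP and 29 ML cells did. The sorted basal library was shallower (137 to 1946 UMIs a cell, median 487) than total epithelium (802 to 12967, median 2425.5). In sorted basal, 853 of 4771 cells had fewer than 3 counts of Krt5, Krt14 and Acta2, and 148 carried non-epithelial genes. The libraries shared 28 cell barcodes.

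Basal cells of the mammary gland are contractile myoepithelial cells that lie against the basement membrane, and transplantation of basal fractions can rebuild a ductal tree. Several of the genes belong to Wnt signalling: Lgr5 is a receptor for R-spondins, which strengthen Wnt signals, and Axin2 is a target and inhibitor of the pathway that is widely used as its reporter. Procr is the endothelial protein C receptor, Cdh5 is VE-cadherin of endothelial junctions, Tspan8 is a tetraspanin of the cell surface, Bcl11b is a zinc finger transcription factor, and Cd1d1 presents lipid antigens to natural killer T cells.

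Lgr5 and Tspan8 have been paired as surface markers of basal stem cell subsets, and in GRCm38 they are neighbours. Lgr5 (ENSMUSG00000020140) is at chr10:115450311-115587780 on the minus strand and Tspan8 (ENSMUSG00000034127) at chr10:115816832-115849893 on the plus strand, so that 229 kb and no protein-coding gene separate them. RefSeq promoters of GRCm38.p6, 250 bases before to 50 bases after a gene's start, were at hand for 4 of the 7 genes, and 2 are shown because Axin2 is the reference Wnt target of the set and Tspan8 was highest in LP cells. Capitals mark CTTTGA and CTTTGT, the core letters that TCF and LEF factors of the Wnt pathway bind, searched on both strands. The Axin2 window is chr11:108920099-108920398 and that of Tspan8 is chr10:115817034-115817333, both on the plus strand. RefSeq places the start of Tspan8 downstream of the start given above, so its window lies inside that interval.
Axin2: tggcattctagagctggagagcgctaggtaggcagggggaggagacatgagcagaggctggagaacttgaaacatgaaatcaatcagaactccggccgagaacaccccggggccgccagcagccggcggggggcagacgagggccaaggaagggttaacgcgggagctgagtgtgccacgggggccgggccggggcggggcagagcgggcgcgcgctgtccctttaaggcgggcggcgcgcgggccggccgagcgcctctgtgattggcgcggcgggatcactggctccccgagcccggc
Tspan8: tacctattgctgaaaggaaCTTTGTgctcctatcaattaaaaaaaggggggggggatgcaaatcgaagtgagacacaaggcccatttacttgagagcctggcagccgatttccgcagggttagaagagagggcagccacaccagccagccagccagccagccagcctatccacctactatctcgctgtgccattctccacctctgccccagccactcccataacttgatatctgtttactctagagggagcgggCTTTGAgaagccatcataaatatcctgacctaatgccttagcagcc
The Tspan8 window held 2 of these words, that of Bcl11b held 1, and those of Axin2 and Procr held none. Of 32851 promoter windows 31.2% held at least 1, so a match is common and describes letters only.

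Lgr5, the R-spondin receptor, was found mainly in basal cells. It was found in 55 of 1280 basal cells (4.30%, 95% interval 3.25 to 5.56), in 3 of 766 LP cells (0.392%, 0.0808 to 1.14) and in 2 of 1133 ML cells (0.177%, 0.0214 to 0.636). Here and throughout, intervals of shares are exact binomial, those of levels and ratios are exact Poisson or conditional, and they cover counting error only. Where no cell was positive, the share said to be allowed is 3 over the number of cells. This is a little under the exact binomial limit (0.234% against 0.288% for 0 of 1280). The basal cells were the shallowest of the 3 classes. After every cell was thinned to 800 UMIs, with no cell left out, the basal share was 2.34%. As a level, Lgr5 stood at 23.4 CPM in basal cells (17.9 to 30.0), which was 16.8 times that in LP (5.50 to 83.8) and 48.3 times that in ML (12.8 to 408). The few luminal UMIs amounted to 5.94% of the basal level in LP and 2.07% in ML. For the 10 listed basal genes the LP level had a median of 0.558% of the basal level (0.173 to 8.64%), and the ML level a median of 0.317% (0.119 to 1.21%). Most positive cells held a single UMI, with 6 of 55 holding 2 or more and none more than 3.

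Lgr5-positive basal cells had slightly more of the basal list and less of the LP list than other basal cells. Their summed basal list was 1.13 times that of Lgr5-negative basal cells (1.09 to 1.17), and its genes did not all move one way. Krt17, a keratin, was at 7642 CPM against 6116 CPM (ratio 1.25, 1.17 to 1.34), whereas Myh11, a smooth muscle myosin, was at 487 CPM against 661 CPM (ratio 0.737, 0.553 to 0.964). Genes of luminal progenitors were lower in them, at 0.413 times the level of negative cells (0.362 to 0.468), although median UMIs were similar (1730 and 1823). The direction was the same in the sorted basal library, where the basal list ratio was 1.21 (1.13 to 1.30) and the LP list ratio 0.398 (0.316 to 0.495) over 75 positive cells. Only 5 of the 75 were among the 853 sorted cells under 3 counts of Krt5, Krt14 and Acta2. Those 853 held the LP list at 13918 CPM and the basal list at 8312 CPM, against 3220 and 16288 CPM in the other 3918 sorted cells. Their part in the sorted ratios was not tested. The 25 listed Wnt receptors, targets and feedback genes gave a ratio of 1.02 in the basal class (0.892 to 1.15) and 0.952 in sorted basal (0.795 to 1.13). A difference in the summed Wnt list was therefore not detectable at this depth, while the lower LP list was seen in both libraries. That sum leans on Myc and Wif1, with 1937 and 1804 counts in the basal class and at most 498 for any other gene. It does not resolve single receptors or feedback genes.

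**Figure D1:**
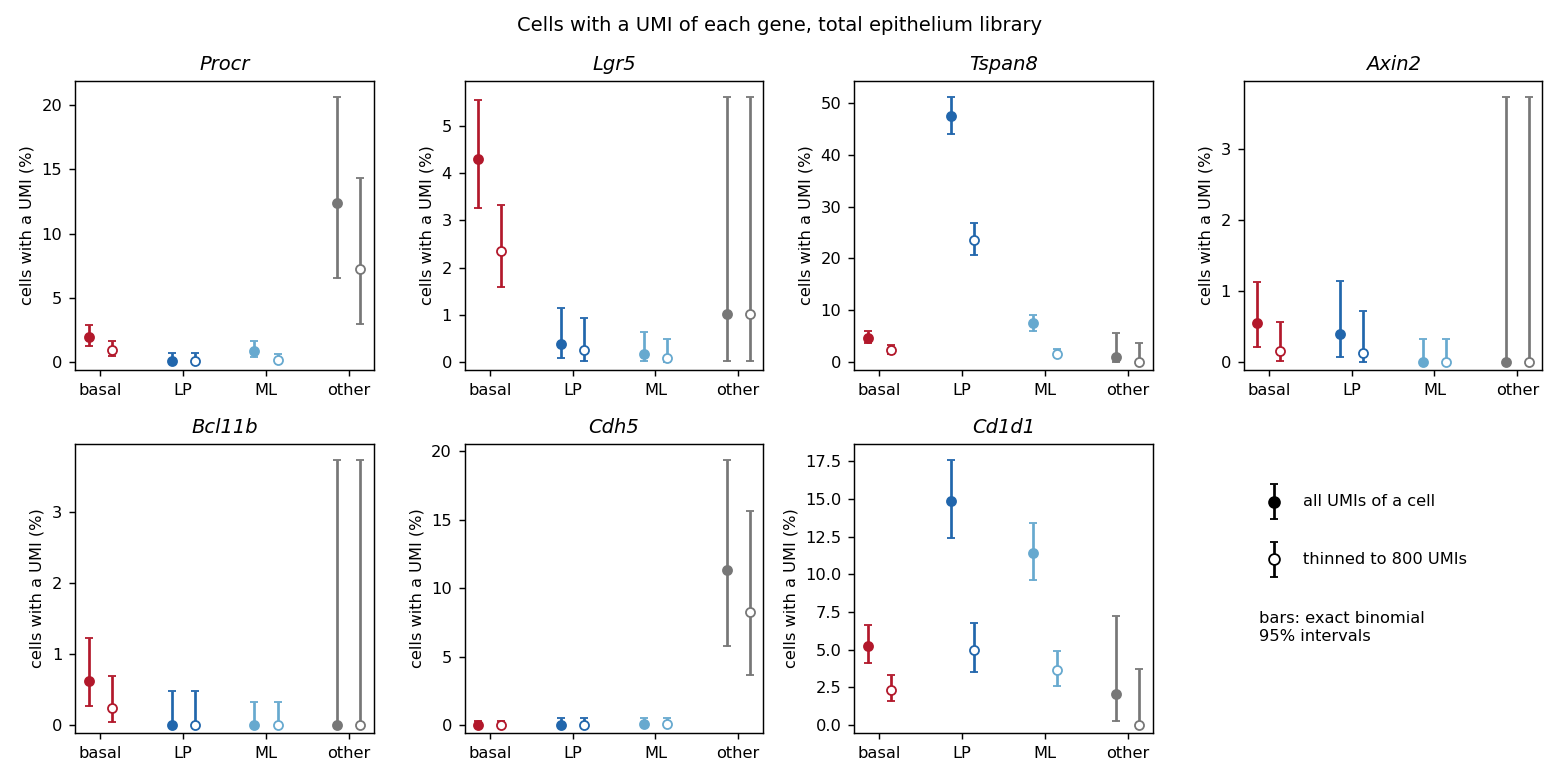
Share of cells with at least 1 UMI of each gene (y axis, percent) in the basal, LP, ML and other classes of total epithelium (x axis). Filled points use all UMIs of a cell, open points use cells thinned to 800 UMIs, and bars are exact binomial 95% intervals. Lgr5 was highest in basal cells, Tspan8 and Cd1d1 in LP cells, and Procr and Cdh5 in the 97 other cells.

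Axin2, the Wnt feedback gene, and Bcl11b were both near the limit of detection. Axin2 (ENSMUSG00000000142) is at chr11:108920349-108950783 on the plus strand of GRCm38. Axin2 was found in 7 of 1280 basal cells (0.547%, 0.220 to 1.12), in 3 of 766 LP cells (0.392%, 0.0808 to 1.14) and in 0 of 1133 ML cells, which allows a share of up to 0.265%. Its basal level of 2.64 CPM was 1.90 times that in LP, with an interval of 0.434 to 11.4, so that basal and LP did not differ beyond counting error. With ML set to a floor of 3 counts over the class, the basal level was 3.64 times that floor. Such a ratio has no interval and leaves out the counting error of the few basal UMIs. The Axin2 promoter printed above showed no CTTTGA or CTTTGT, and no statement on Wnt activity follows from that.

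Bcl11b, the zinc finger factor, was seen in basal cells alone among the classes of total epithelium, but in only 8 of 1280 (0.625%, 0.270 to 1.23) with 10 UMIs in all. Bcl11b (ENSMUSG00000048251) is at chr12:107910403-108003602 on the minus strand of GRCm38. LP had 0 of 766 cells with it, which allows up to 0.392%, and ML 0 of 1133, which allows up to 0.265%. The basal level of 3.77 CPM was 2.71 times the same floor in LP and 5.20 times that in ML, again without an interval. All 8 positive cells had 3 or more counts of the basal list, as did the basal-class cells positive for each other member. None of the 8 carried 3 or more counts of non-epithelial genes, which only 2.58% of all basal cells did. Neither count therefore sets Bcl11b apart. In the other class 0 of 97 cells held Bcl11b or Axin2, which allows up to 3.09%, so these 97 cells could not show shares of the basal size.

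Tspan8, the tetraspanin, was highest in the luminal progenitor class. It was found in 364 of 766 LP cells (47.5%, 43.9 to 51.1), in 85 of 1133 ML cells (7.50%, 6.04 to 9.19) and in 61 of 1280 basal cells (4.77%, 3.66 to 6.08). Thinned to 800 UMIs the shares were 23.6%, 1.59% and 2.42%. The order of LP over the other classes held at equal depth, while ML and basal exchanged places and are not ordered. Its level was 386 CPM in LP (360 to 413), 42.6 CPM in basal (35.1 to 51.2) and 39.0 CPM in ML (33.2 to 45.5). LP was 9.91 times ML (8.36 to 11.8), and the basal level was 0.110 times that of LP (0.0899 to 0.135). Basal and ML did not differ beyond counting error (ratio 1.09, 0.852 to 1.40). Single LP cells held up to 12 UMIs of it, and 200 of the 364 positive cells held 2 or more.

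The Tspan8 seen outside LP was set beside other LP genes. Tspan8 in the basal class stood at 11.0% of its LP level, and the 10 listed LP genes ranged there from 1.07% (Aldh1a3) to 34.0% (Lcn2, which binds bacterial siderophores), with a median of 4.64% and 9 of 10 below Tspan8. In ML the Tspan8 level was 10.1% of LP, inside the range of the list (8.28 to 18.8%, median 10.3%, 4 of 10 below). Thus in ML Tspan8 stood where LP genes as a group stood, and in the basal class it stood above the middle of the list.

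The basal cells with a Tspan8 UMI were rich in LP transcripts. Their summed LP list was 27804 CPM against 3447 CPM in Tspan8-negative basal cells, a ratio of 8.07 (7.79 to 8.35), and their basal list was 0.599 times that of negative cells (0.576 to 0.623). Csn3, a milk casein and the LP gene most like Tspan8 across cells, was at 2872 CPM against 59.8 CPM. The contrast differed with luminal keratins, since 701 of 1280 basal cells had 3 or more counts of Krt8, Krt18 and Krt19, and 46 of them held Tspan8 (6.56%, 4.84 to 8.66), with an LP list 9.06 times that of the negative cells among them (8.71 to 9.42). Among the 579 basal cells under 3 such counts, 15 held Tspan8 (2.59%, 1.46 to 4.24), and their LP list was 1.34 times that of the negative cells (1.11 to 1.61). Median UMIs were 2061 in the cells with luminal keratins and 1559 in the rest. The rules do not set apart a basal and an LP cell captured together, which could fall in the basal class. The part of depth, of luminal RNA and of such doublets in the Tspan8 signal was not tested. ML cells with Tspan8 showed the same contrast, with an LP list at 32472 CPM against 2794 CPM, a ratio of 11.6 (11.3 to 11.9), at median UMIs of 5663 and 3287.5.

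Within LP, some of the listed LP genes were higher in cells with Tspan8 and some were not. In Tspan8-positive LP cells Csn3 was 1.60 times the level of negative cells (1.55 to 1.66), Trf (transferrin) 1.39 times (1.37 to 1.41) and Lcn2 1.35 times (1.30 to 1.41). Wfdc18 (ratio 0.956, 0.846 to 1.08), Mfge8 (1.07, 1.03 to 1.11) and Cd14 (1.057, 1.003 to 1.11) were close to the level of negative cells. Kit, the receptor that marks a part of the progenitors, was at 48.0 CPM against 51.6 CPM (ratio 0.930, 0.625 to 1.39). The mature luminal list was lower in positive cells at 0.193 times (0.171 to 0.216). LP holds cells that passed neither other rule, with the mature luminal list at 845 CPM, and numbered 683 or 987 cells with an ML minimum of 5 or 20. The luminal intermediate cells that the paper describes were not separated from it. How far such cells among the Tspan8-negative ones set these ratios was not tested. Positive cells were deeper (median 2937 UMIs against 1984.5), but these are levels per UMI total. Thinned to 800 UMIs, Csn3 was found in 84.9% of positive and 60.4% of negative cells, and Kit in 3.57% and 3.73%.

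**Figure D2:**
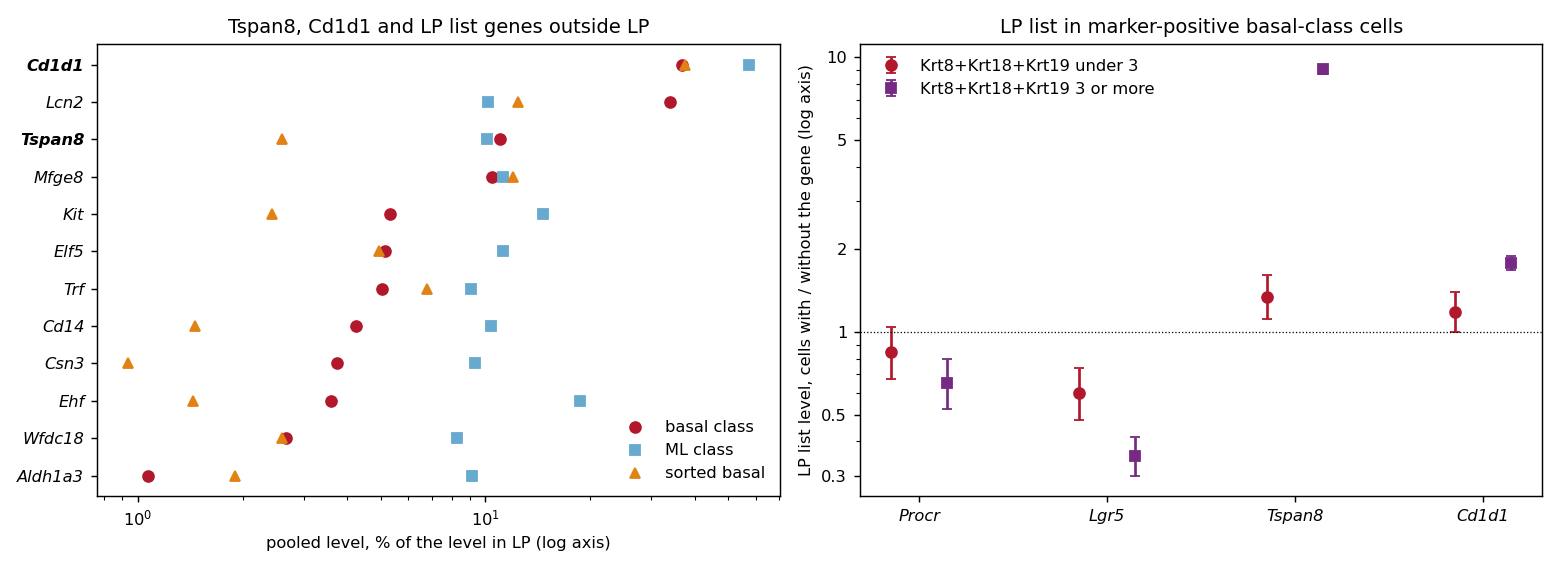
Left, pooled level of Tspan8, Cd1d1 (bold) and the 10 LP list genes in basal, ML and sorted basal cells, as a percent of the level in LP (x axis, log). Right, summed LP list level in basal-class cells with a UMI of the gene divided by that in cells without (y axis, log), split by luminal keratin counts, with exact 95% intervals. The Tspan8 ratio was 9.06 in cells with luminal keratins and 1.34 in the rest, while Lgr5 lay below 1 in both.

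Cd1d1, the lipid-presenting molecule, was spread over all 3 epithelial classes and was not highest in basal cells. Cd1d1 (ENSMUSG00000028076) is at chr3:86995834-86999441 on the minus strand of GRCm38. It was found in 114 of 766 LP cells (14.9%, 12.4 to 17.6), 129 of 1133 ML cells (11.4%, 9.59 to 13.4) and 67 of 1280 basal cells (5.23%, 4.08 to 6.60). At 800 UMIs the shares were 4.96%, 3.62% and 2.34%, so the order stayed and the gaps narrowed. The level was 73.7 CPM in LP, 42.1 CPM in ML and 27.2 CPM in basal cells. The basal level was 0.369 times that in LP (0.275 to 0.490) and 0.645 times that in ML (0.483 to 0.853), both beyond counting error. Of its partners in lipid presentation, B2m, the light chain of CD1d, was also lowest in basal cells (467 CPM, against 562 CPM in LP and 1198 CPM in ML), whereas Ctsl, a lysosomal protease, was highest there (2232, 783 and 364 CPM). Cd1d2, a close copy of Cd1d1, had 2 counts in LP and 0 in basal and ML. Reads that fit both copies could not be assigned to 1 of them, so the Cd1d1 values are uncertain to that extent.

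Procr, the protein C receptor, was found in few basal cells and in a larger share of non-epithelial cells. Procr (ENSMUSG00000027611) is at chr2:155751117-155755471 on the plus strand of GRCm38. It was detected in 25 of 1280 basal cells (1.95%, 1.27 to 2.87), 1 of 766 LP cells (0.131%, 0.00331 to 0.725) and 10 of 1133 ML cells (0.883%, 0.424 to 1.62). In the 97 other cells it was detected in 12 (12.4%, 6.56 to 20.6). The level was 11.3 CPM in basal cells (7.63 to 16.2), 3.60 times that in ML (1.82 to 7.51) and 12.2 times that in LP (3.10 to 105), but the other cells stood at 194 CPM, 17.1 times the basal level (10.0 to 29.3). The other cells had the lowest median UMIs of the classes, and at 800 UMIs the shares were 0.938% in basal and 7.22% in other cells.

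The cells that held Procr were examined for genes of other types. Of 48 Procr-positive cells in total epithelium, 24 carried 3 or more counts of non-epithelial lists, and these 24 cells held 44 of the 76 Procr UMIs. By type, Procr was found in 11 of 52 cells with fibroblast genes (21.2%, 11.1 to 34.7), at 247 CPM, and in 8 of 34 cells with endothelial genes (23.5%, 10.7 to 41.2), at 159 CPM. It was also found in 7 of 45 cells with pericyte genes (15.6%, 6.49 to 29.5), at 80.4 CPM. These sets overlap, since a cell can pass more than 1 list. Of the 34 cells with endothelial genes, which held 12 Procr UMIs, 27 were not in the fibroblast set. Among those 27, Procr was in 1 basal and 4 other cells, with 1 and 5 UMIs. In the 3155 cells outside these lists it was found in 24 (0.761%, 0.488 to 1.13), at 3.61 CPM. Median UMIs were 2090, 1840, 1828 and 2456 in these sets, lowest in the cells with pericyte genes.

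The rule for ML let in 12 cells with fibroblast genes, and 5 of the 10 Procr-positive ML cells were among them. With non-epithelial cells left out, the ratio of basal to ML rose from 3.60 to 6.84 (2.53 to 23.1), and LP had no Procr UMI left. Inside the basal class, 8 of the 25 Procr-positive cells carried 3 or more non-epithelial counts, against 33 of all 1280 basal cells (2.58%). All 25 carried 3 or more counts of the basal list, as did the basal-class cells positive for each other member. The basal rule let in 18 cells with pericyte genes, and 4 of the Procr-positive basal cells were among them. Genes of the basal list were also found in the 97 other cells, Myl9 in 34.0% and Tagln in 29.9%. Counts of this list alone therefore do not name a cell basal. The basal list of the Procr-positive basal cells was at the level of negative basal cells (ratio 0.971, 0.919 to 1.03), but its genes did not all move one way. Myl9, a myosin light chain, was at 1.67 times the negative level (1.47 to 1.89). Lower were Cnn1, a calponin of smooth muscle (0.693 times, 0.581 to 0.821), Krt17 (0.811 times, 0.717 to 0.913) and Cxcl14 (0.765 times, 0.661 to 0.881). The intervals of the other listed basal genes held 1. Pericyte genes were 10.2 times higher in the Procr-positive basal cells (5.53 to 17.6), from 16 counts, and endothelial genes 5.54 times (2.57 to 10.7), from 10 counts. Basal cells without those counts still held Procr in 1.36% (0.796 to 2.17). Luminal keratins were lower in the positive cells, at 0.461 times (0.358 to 0.584). Of the 7 listed partners in the protein C pathway, Pros1, the cofactor protein S, was basal-high (288 CPM in basal, 22.7 in LP, 5.32 in ML), F3, tissue factor, was highest in ML (1240 CPM against 180 in basal), and Thbd, thrombomodulin, had 2 counts in basal cells but 187 CPM in the other cells.

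Cdh5, the endothelial cadherin, was not found in the basal class at all. Cdh5 (ENSMUSG00000031871) is at chr8:104101625-104144511 on the plus strand of GRCm38. It was detected in 0 of 1280 basal cells, which allows a share of up to 0.234%, in 0 of 766 LP cells, which allows up to 0.392%, and in 1 of 1133 ML cells. It was detected in 11 of 97 other cells (11.3%, 5.80 to 19.4), at 87.5 CPM. That was 77.4 times the floor of 3 counts over the basal class, a ratio without an interval. All 12 positive cells of the library carried 3 or more counts of the endothelial list, the 11 other cells 4 to 26 and the ML cell 19. Among 3155 cells without non-epithelial genes none held Cdh5, which allows up to 0.0951%, while 12 of 34 cells with endothelial genes did (35.3%, 19.7 to 53.5). Of those 34 cells 8 held Procr, and 2 cells held both genes.

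**Figure D3:**
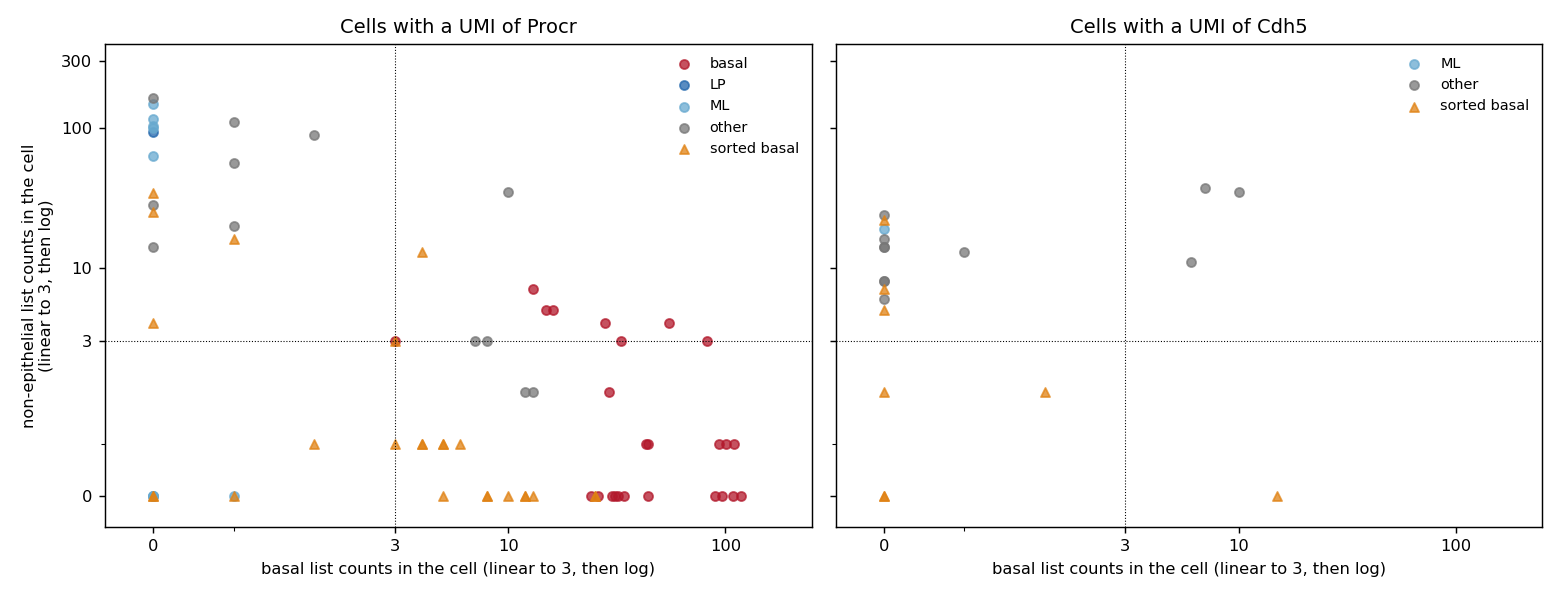
Each point is a cell with at least 1 UMI of Procr (left) or Cdh5 (right). The x axis gives its counts of the 10 listed basal genes and the y axis its counts of fibroblast, endothelial, pericyte, Schwann and immune genes, both linear to 3 and log beyond, with dotted lines at 3. Colours give the class of total epithelium and triangles are sorted basal cells. Procr cells fell along both axes, whereas the Cdh5 cells of total epithelium all lay above 3 non-epithelial counts. Basal list genes were also found in some other cells, so a place on the x axis alone does not name a cell basal.

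Set against all genes, 2 of the 7 members were called basal-high. A gene was called basal-high, LP-high or ML-high where its pooled level in 1 class was at least 2 times that in each of the others, among genes with 20 or more counts over the 3 classes. Procr and Lgr5 were basal-high, a call that 13.8% of the 10817 genes tested received. Tspan8 was LP-high, as were 4.49% of genes, no member was ML-high (9.08% of genes), Cd1d1 received no call, and Axin2, Bcl11b and Cdh5 had too few counts. Among the 25 other Wnt genes, 19 had enough counts and 10 of them were basal-high and none LP- or ML-high, with Myc (730 CPM) and Wif1, a secreted Wnt inhibitor (680 CPM against 6.02 in LP), highest in basal cells. The median log2 ratio of basal over luminal was 1.97 for these 19 genes and 0.00 for all genes tested. Of 12 other genes proposed for basal stem cells, such as the integrin subunit Itgb1 (465 CPM in basal, 131 in LP, 171 in ML), 10 had enough counts and 6 were basal-high, 1 LP-high and 1 ML-high. Of 13 other tetraspanins, all with enough counts, 1 was basal-high, 2 LP-high and 4 ML-high, Cd9 being highest in ML (6785 CPM) and Cd81 in LP (4313 CPM). Of 9 cadherins and catenins, 7 had enough counts and 2 were basal-high.

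The markers rarely met in 1 cell. Of 1280 basal cells, 1075 held none of the 7 genes (84.0%, 81.9 to 86.0), 187 held 1 (14.6%), 18 held 2 (1.41%, 0.836 to 2.21) and none held 3 or more. Of the 21 pairs, 11 had no cell with both, and the most frequent, Tspan8 with Cd1d1, had 5 cells. Every pair with Cdh5 had to be empty, since no basal cell held it. Axin2 and Bcl11b were in only 7 and 8 basal cells, so an empty pair with either says little. Lgr5 and Tspan8 met in 2 cells (0.156%, 0.0189 to 0.563). Of the Lgr5-positive cells none held Axin2, and 1 of 25 Procr-positive cells held Lgr5 (4%, 0.101 to 20.4) against 4.30% of Procr-negative cells (3.25 to 5.58). Procr and Tspan8 met in 2 cells, 8% of the Procr-positive cells (0.984 to 26.0) against 4.70% of the rest (3.60 to 6.02). These intervals overlap widely, so neither a shared nor a separate set of cells could be seen. For Procr, Lgr5 and Tspan8 together, 131 cells held 1, 5 held 2 and 0 of 1280 held all 3, which allows up to 0.234%. The 5 Tspan8 and Cd1d1 cells, and both Lgr5 and Tspan8 cells, had 3 or more counts of luminal keratins. So did 46 of all 61 Tspan8-positive basal cells and 701 of all 1280 basal cells, so this does not set the pairs apart. The cells with 2 members were deeper, with a median of 2575.5 UMIs against 1805 in cells with none.

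The pair seen most was a luminal one. In LP, 67 of 766 cells held both Tspan8 and Cd1d1. Cd1d1 was found in 18.4% of Tspan8-positive LP cells (14.6 to 22.8) and in 11.7% of Tspan8-negative ones (8.72 to 15.2), but the positive cells were deeper, and at 800 UMIs the values were 4.67% and 5.22%. No excess of the share was seen at equal depth, in 1 draw with wide intervals. As a pooled level, Cd1d1 was at 86.0 CPM in Tspan8-positive and 57.9 CPM in Tspan8-negative LP cells. That ratio was 1.49, and its interval lay above 1. In the reverse split, Tspan8 was at 406 CPM in Cd1d1-positive and 381 CPM in Cd1d1-negative LP cells, and the interval of that ratio held 1. Sorted basal cells showed as little overlap, with 14 of 21 pairs at 0 cells, at most 3 cells for a pair (Lgr5 with Cd1d1), 10 of 4771 cells with 2 members and none with 3, which allows up to 0.0629%. No member was in more than 75 of these cells, so empty pairs say little there too.

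**Figure D4:**
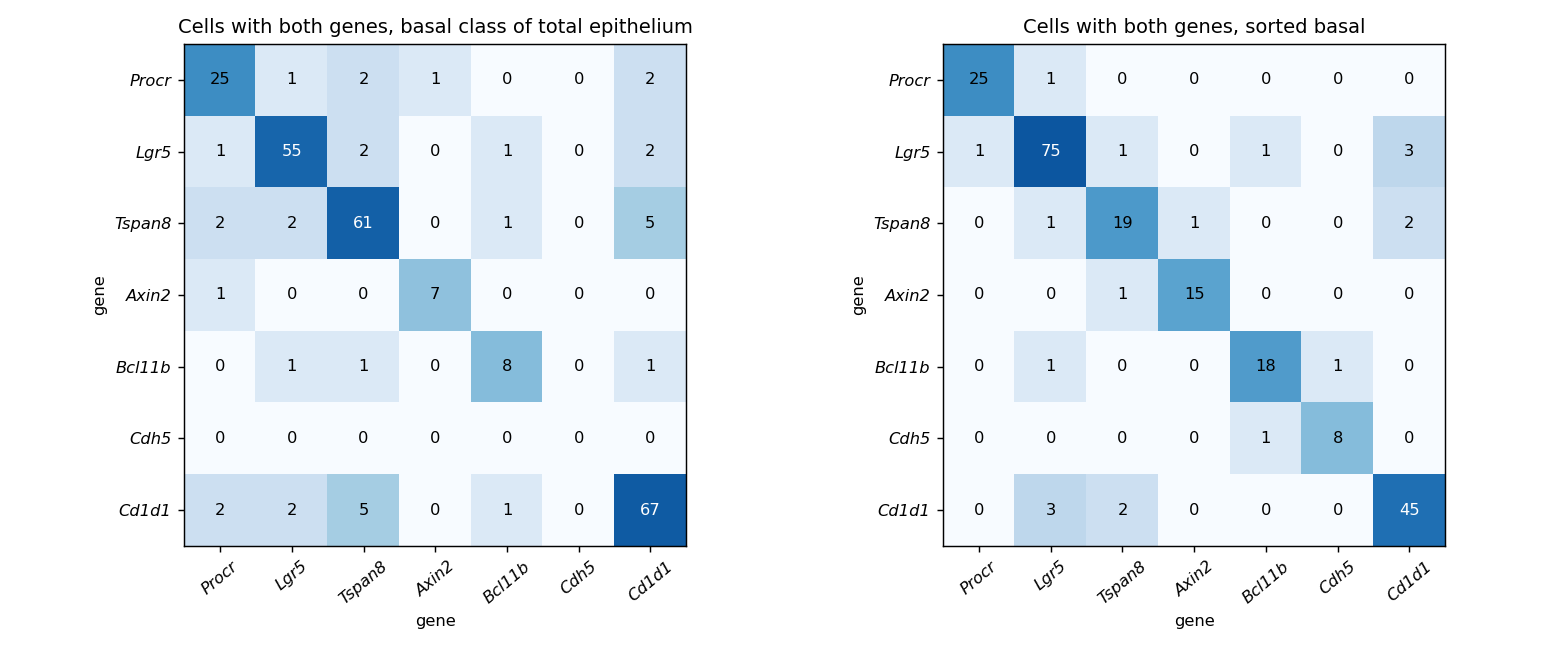
Number of cells that held both genes of each pair, in the basal class of total epithelium (left, 1280 cells) and in sorted basal (right, 4771 cells), with the number of positive cells of each gene on the diagonal. Shading follows the log of the count plus 1. No pair exceeded 5 cells, and Cdh5 was at 0 in the basal class.

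The sorted basal library held Lgr5 at a higher and Tspan8 at a lower pooled level than the basal class. Library, sort and depth cannot be told apart in this comparison. Lgr5 stood at 39.4 CPM in sorted basal (32.0 to 48.0) against 23.4 CPM in the basal class, a ratio of 1.68 (1.21 to 2.35). It was found in 75 of 4771 sorted cells (1.57%, 1.24 to 1.97). With both libraries thinned to 300 UMIs, which left out 882 sorted cells and no basal-class cell, the shares in 1 draw were 1.003% (0.714 to 1.37) and 0.938% (0.485 to 1.63), and the shares expected over all draws 1.02% and 0.832%. The pooled level was thus higher in sorted basal and the share at equal depth was not distinguishable.

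Tspan8 went the other way. Its sorted basal level was 10.0 CPM (6.50 to 14.8), 0.236 times the basal class (0.146 to 0.366), and at 300 UMIs the share expected over all draws was 0.247% of sorted cells and 1.064% of basal-class cells. A single draw gave 0.231% (0.106 to 0.439) and 1.95% (1.27 to 2.87), the last being far above its expected value. In sorted basal it was at 2.60% of its LP level, where the 10 LP genes had a median of 2.52% (0.937 to 12.4%). The 19 Tspan8-positive sorted cells again carried more LP transcripts, 5.83 times the level of negative cells (5.15 to 6.59). Of these 19 cells, 5 were under 3 counts of Krt5, Krt14 and Acta2.

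Procr and Cd1d1 did not differ beyond counting error between the sorted library and the basal class. The ratios were 1.24 (0.741 to 2.10) for Procr and 1.02 (0.723 to 1.44) for Cd1d1. Among sorted cells with 3 or more counts of Krt5, Krt14 and Acta2, Procr was at 9.17 CPM (5.60 to 14.2), and in the 853 cells under 3 it was at 48.7 CPM (27.3 to 80.4). Procr-positive sorted cells held fibroblast genes at 11.4 times the level of negative ones (8.86 to 14.4), but nearly all of these 75 counts lay in 3 cells with 16, 23 and 34. Of the 25 cells, 20 carried 3 or more counts of no non-epithelial list, and 16 of these carried 3 or more of the basal list. Cdh5 divided in the same way, with 15 of its 16 UMIs in cells under 3 counts (48.7 CPM) and 1 in the rest, where 1 of 3918 cells held it (0.0255%, 0.000646 to 0.142). Of the 8 Cdh5-positive sorted cells 3 carried 3 or more endothelial counts and 5 carried 3 or more of no non-epithelial list, in cells of 152 to 731 UMIs in all.

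Axin2 and Bcl11b were higher in sorted basal by the 2-fold rule, with wide intervals. Axin2 was at 6.43 CPM against 2.64 CPM (ratio 2.44, 0.948 to 7.0004) and Bcl11b at 7.63 CPM against 3.77 CPM (ratio 2.02, 0.896 to 4.87), so both intervals held 1. Against sorted cells with 3 or more counts of Krt5, Krt14 and Acta2, the ratio of Bcl11b was 1.95 (0.830 to 4.80), under 2-fold, and that of Axin2 was 2.61 (1.00001 to 7.55). The call is common, since 29.1% of the 10114 genes tested were at least 2-fold higher in sorted basal and 15.4% at least 2-fold lower. Tspan8 was among the lower genes, and Procr, Lgr5 and Cd1d1 were in neither set. Cdh5 had too few counts for the call.

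**Figure D5:**
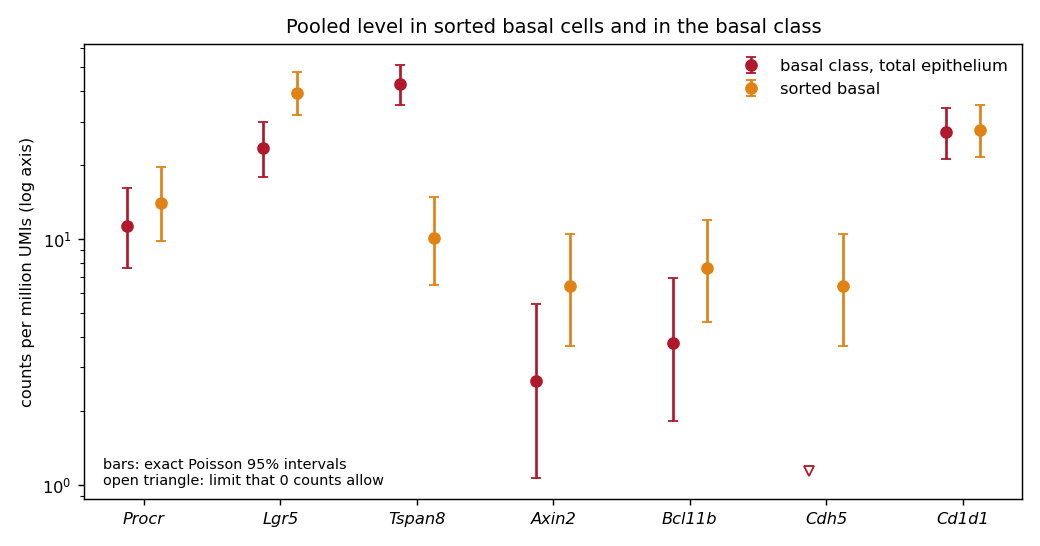
Pooled level of each gene (y axis, UMIs of the gene per 1000000 UMIs, log) in the basal class of total epithelium and in sorted basal, with exact Poisson 95% intervals. The open triangle is the level that 0 counts of Cdh5 allow. Lgr5 was higher and Tspan8 lower in sorted basal, and the intervals of the other genes with counts in both overlapped.

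The genes whose values ran most like those of each member over the 3302 cells of total epithelium were of LP, vascular and stromal kinds for Tspan8, Cdh5 and Procr. Pearson's r was computed on natural log values scaled to 10000 UMIs, over 9651 genes detected in at least 1% of cells, as a description, since cells share 1 library and differ in depth. For Tspan8 the closest were Csn3 (r = 0.57), Trf (0.55) and Plet1 (0.52). For Cdh5 they were Egfl7 (0.52), Fabp4 (0.52) and Esam (0.37), which vascular cells express. For Procr they were Aspn (0.32), Sparcl1 (0.31) and Gja4 (0.30), each found in under 3% of cells. No gene reached 0.2 for Lgr5, Axin2, Bcl11b or Cd1d1.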

How the data were processed

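Libraries of 3302 total epithelial and 4771 sorted basal cells were made by droplet 3' capture. The authors deposited UMI counts per gene and cell after alignment, cell calling and UMI collapse with Cell Ranger, version 1.2.1 and build mm10 in the submitters' processing notes, while the paper's methods name a later release. Library totals were 9227651 and 2488704 UMIs. No further cell filter was applied and no doublet caller was run: cells past both the basal and ML rules were kept apart. Doublets of basal and LP cells could not be set apart by these rules. Counting error was the only error available, with 1 library a group, so shares and pooled levels carry exact intervals at 95% and no test was made. Functions were tested on simulated data. Cells were thinned by 1 seeded draw without replacement. Non-epithelial cells had 3 or more counts over 5 lists, after Dcn and Ecscr were dropped because 10% or more of an epithelial class held them, a choice made after seeing the data. Named were the 7 members, the 3 highest genes of a list in a class or set of cells and the 3 most like a member. Others named beside them (Aldh1a3, Kit, Elf5, Ehf, Krt17, Myh11, Wfdc18, Mfge8, Cd14, Myl9, Tagln, Cnn1, Cxcl14, Thbd, Cd1d2) were chosen after their values were seen. Members and lists were chosen with earlier results of these data known. Antisense transcripts overlap Lgr5 and Tspan8, and whether counting used strand is not given in the sources used here. Python 3.11.15, numpy 2.4.6, scipy 1.17.1, pandas 2.3.3 and matplotlib 3.10.9 were used. Alternatives covered class thresholds, depth, UMIs needed, cells left out, scaling, fold and count filter.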

Additional observations from a re-analysis of the deposited data

How the results depend on the processing

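Depth and the number of UMIs required set the shares. Thinned to 800 UMIs (expected share over all draws in brackets where it also moved), Procr in basal cells went from 1.95% to 0.938% (0.930%), Lgr5 from 4.30% to 2.34% (2.10%), Axin2 from 0.547% to 0.156%, Bcl11b from 0.625% to 0.234% (0.247%), Tspan8 in LP from 47.5% to 23.6% (22.4%) and Cd1d1 in LP from 14.9% to 4.96% (5.08%). When 2 or more UMIs were required, they were 0.234%, 0.469%, 0%, 0.156%, 26.1% and 3.79%, and Cdh5 in other cells went from 11.3% to 1.03%. Leaving out cells of other types by the full lists gave 1.19% for Procr in basal cells and 0% for Cdh5 in other cells, and 0% for Cdh5 also with the stricter lists, an alternative chosen after seeing the data. Leaving out basal cells with luminal keratins gave 2.94% for Procr. Tspan8 in LP was 52.0% and 38.6% with an ML minimum of 5 and of 20. Folds of 1.5 and 3 in place of 2 called 2287 and 954 genes basal-high (1496), 753 and 298 LP-high (486) and 1896 and 459 ML-high (982). Procr and Lgr5 were basal-high and Tspan8 LP-high at each of these folds, Procr lost its test at a minimum of 50 counts, and Cd1d1 was LP-high at a fold of 1.5. No paired analysis was possible because each group is 1 library. A count of 0 among basal cells allows a share of up to 0.234%.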

Other observations

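Among the 26 cells of total epithelium that passed both the basal and the ML rule (median 4609 UMIs), Cd1d1 was found in 4 (15.4%, 4.36 to 34.9), Tspan8 in 3 (11.5%, 2.45 to 30.2) and Lgr5 in 1. Procr, Axin2, Bcl11b and Cdh5 were found in none of them, which allows a share of up to 11.5% each.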
